A study of Mus musculus with 2 samples.

Results

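The 57 genes described here encode the Wnt ligands of the mouse, their receptors, their secreted inhibitors, the R-spondin arm of the pathway, and the nuclear factors and a direct target of the signal. They were found by symbol in the deposited gene table, which lists 43437 genes, and each of the 57 symbols matched a single row. The table holds 1 library of the telencephalon and 1 library of the whole body, both from wild-type fetuses of the outbred mouse stock ICR at E12.5, with no treatment. The telencephalon is the region of the embryonic brain that becomes the cortex and the basal ganglia. The labels do not give the number or sex of the fetuses, or say whether the whole body kept its head.

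Wnt proteins are secreted, lipid-modified signals that bind Frizzled receptors. In the canonical branch they also engage the co-receptors Lrp5 and Lrp6, and β-catenin then accumulates and works with TCF/LEF factors on target genes. Other branches run through Ror1, Ror2 and Ryk. In the embryonic forebrain, Wnt signals from the cortical hem at the dorsal midline pattern the hippocampus and cortex, and Wnt7a and Wnt7b made by neural progenitors act on the blood vessels that grow into the brain.

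Values are FPKM, fragment counts scaled for transcript length and for the size of the library, so levels of different genes can be compared within a library. Each difference is the log2 of (FPKM + 1) in telencephalon over (FPKM + 1) in whole body, and a gene past 2-fold on this scale is called higher or lower. Within 2-fold refers to this scale, on which the pseudocount narrows the ratios of low genes. Folds are ratios of FPKM, each with an exact 95% binomial interval from the estimated fragments behind it. These intervals cover counting error only. Because each tissue has 1 library, the spread between replicates is unknown, nothing was tested, and every value describes this pair of libraries. The low FPKM values of single-isoform genes fell on steps that correspond to about 22700000 fragments in telencephalon and 29300000 in whole body, and 3 fragments on a transcript of 2000 bases are worth 0.0793 and 0.0610 FPKM in these libraries. The library kit does not mark strand, and genes on the opposite strand overlap 10% or more of the exons of Notum, Fzd5, Sfrp2, Rspo3 and Lef1, so some of their fragments could come from the other gene. Markers followed the label: 7 of 8 telencephalic markers were higher in the telencephalon library, with Dlx2, a homeobox gene of the ventral telencephalon, at 212 FPKM in telencephalon and 5.40 FPKM in whole body.

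Most Wnt pathway genes stood lower in the telencephalon library than in the whole body, and a few stood higher. Of the 57 genes, 51 reached 1 FPKM in at least 1 library. Among these 51, 3 were called higher in telencephalon and 35 lower, and the other 13 lay within 2-fold. The 3 higher genes were the ligands Wnt7a and Wnt7b and the receptor Fzd3. Over all 14987 genes that reached this level, 9.39% were higher and 21.2% were lower, and among the 13706 protein-coding ones 8.41% were higher, 21.4% lower. The log2 ratio had a median of -1.40 over the 51 genes and -0.16 over all measured genes. However, 19 of the 51 passed the level through whole body alone and so had a lower FPKM in telencephalon by this choice, though not always past 2-fold, and none passed through telencephalon alone. Among the 32 members of 1 FPKM or more in both libraries, 3 were higher and 16 lower with a median of -1.02, beside 9.21% and 12.4% of all 12134 such genes and a median of -0.05. In bulk tissue, fewer cells of a type and less RNA per cell cannot be told apart.

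**Figure D1:**
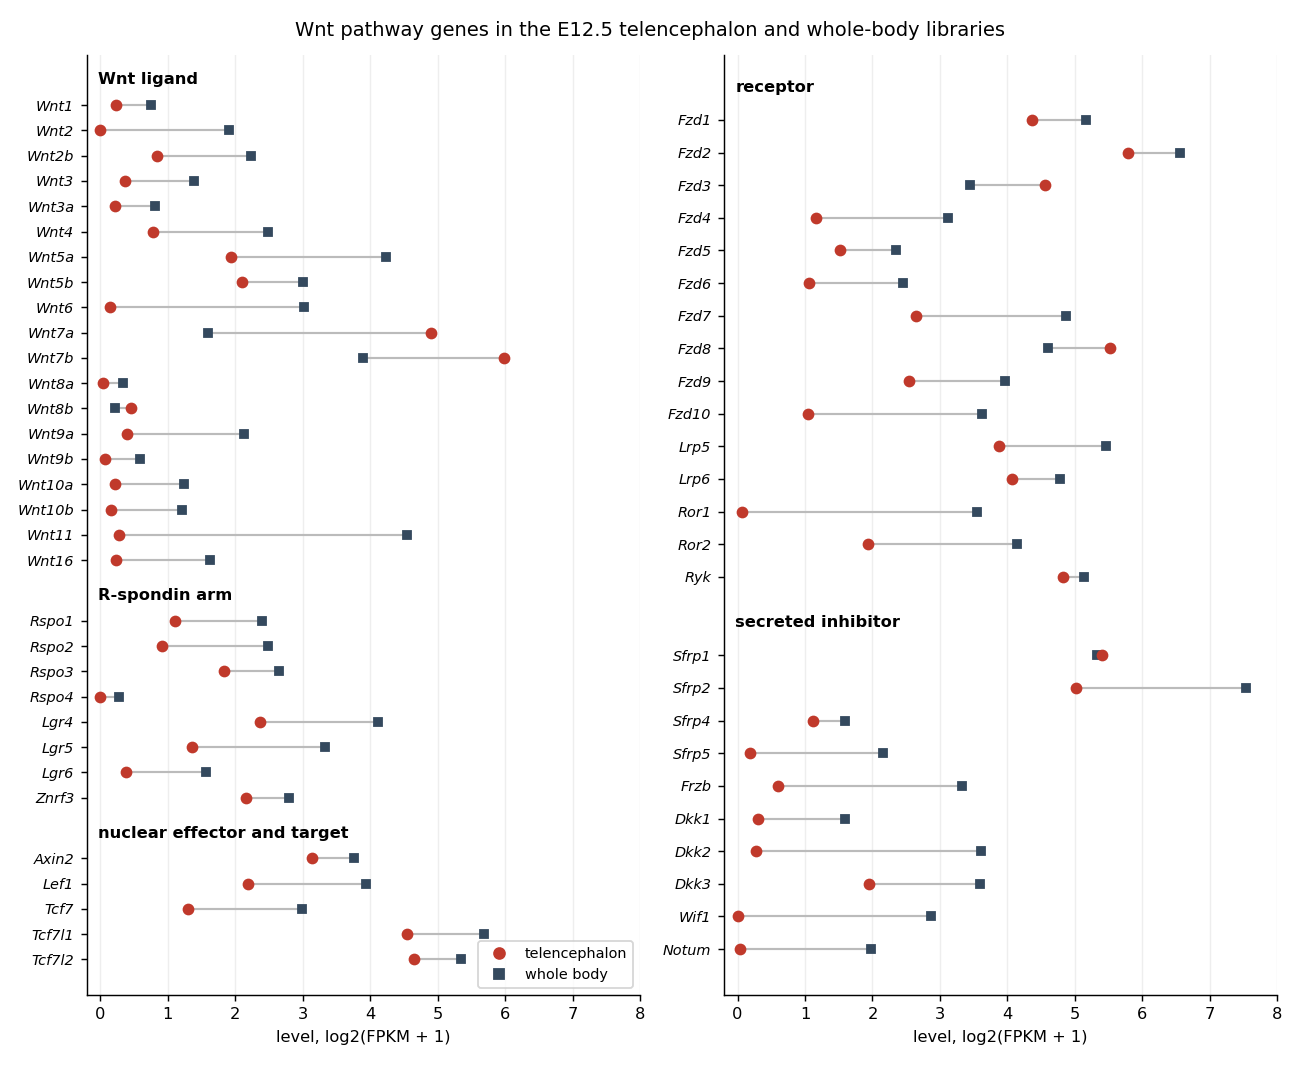
Level of each of the 57 genes as log2(FPKM + 1) in the telencephalon library (red circles) and the whole-body library (dark squares), 1 library each, grouped by role. The circle lies left of the square for most genes. The exceptions are Wnt7a, Wnt7b, Wnt8b, Fzd3, Fzd8 and Sfrp1, the last with both symbols almost on each other.

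Most markers of other tissues, like most Wnt genes, were lower in telencephalon. All 8 markers of mesenchyme and connective tissue were lower in telencephalon, with a summed level of 17.1 FPKM in telencephalon and 1680 FPKM in whole body. All 7 markers of surface epithelium were lower as well, with sums of 1.40 FPKM in telencephalon and 109 FPKM in whole body, and Krt14 and Krt18 were listed at 0 in telencephalon. The 6 endothelial markers summed to 22.8 FPKM in telencephalon and 96.4 FPKM in whole body, and all 6 were lower. Of the 8 markers of midbrain, hindbrain and spinal cord 7 were measured, 5 of them lower and none higher. The 8 summed to 6.06 FPKM in telencephalon and 79.5 FPKM in whole body. Gbx2, within 2-fold, went the other way, at 4.52 FPKM in telencephalon and 2.88 FPKM in whole body. Hoxb8 and Hoxb9 had 46.0 and 19.3 FPKM of the whole-body sum. All 4 liver markers were lower, with sums of 4.58 FPKM in telencephalon and 1936 FPKM in whole body. Of 5 blood markers 3 were lower, while the globin genes Hbb-y and Hba-x lay within 2-fold, and the list summed to 2597 FPKM in telencephalon and 4413 FPKM in whole body. The part of these tissues in the lower Wnt genes was not tested.

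Among the ligands, the telencephalon library was dominated by Wnt7b and Wnt7a, while the whole body held a mixture led by Wnt11, Wnt5a and Wnt7b. Wnt7a (chromosome 6, 91363981 to 91411363 on GRCm38, minus strand) stood at 28.9 FPKM in telencephalon and 2.02 FPKM in whole body. This is 14.3-fold higher, with an interval of 12.2 to 16.9 and a log2 ratio of 3.31. Wnt7b (chromosome 15, 85535437 to 85582473, minus strand) stood at 62.3 FPKM in telencephalon and 13.9 FPKM in whole body, 4.48-fold higher (interval 4.21 to 4.78). The whole-body level was thus 6.98% of the telencephalic level for Wnt7a and 22.3% for Wnt7b. The same percentage was 2.54% for Dlx2.

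The summed level of the 19 ligands was close in the 2 libraries, 101 FPKM in telencephalon and 93.5 FPKM in whole body, but its make-up was not. Wnt7a and Wnt7b together held 90.3% of the sum in telencephalon and 17.0% in whole body. The other 17 ligands summed to 9.79 FPKM in telencephalon and 77.5 FPKM in whole body. Of these 17, only Wnt5b and Wnt5a reached 1 FPKM in telencephalon.

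**Figure D2:**
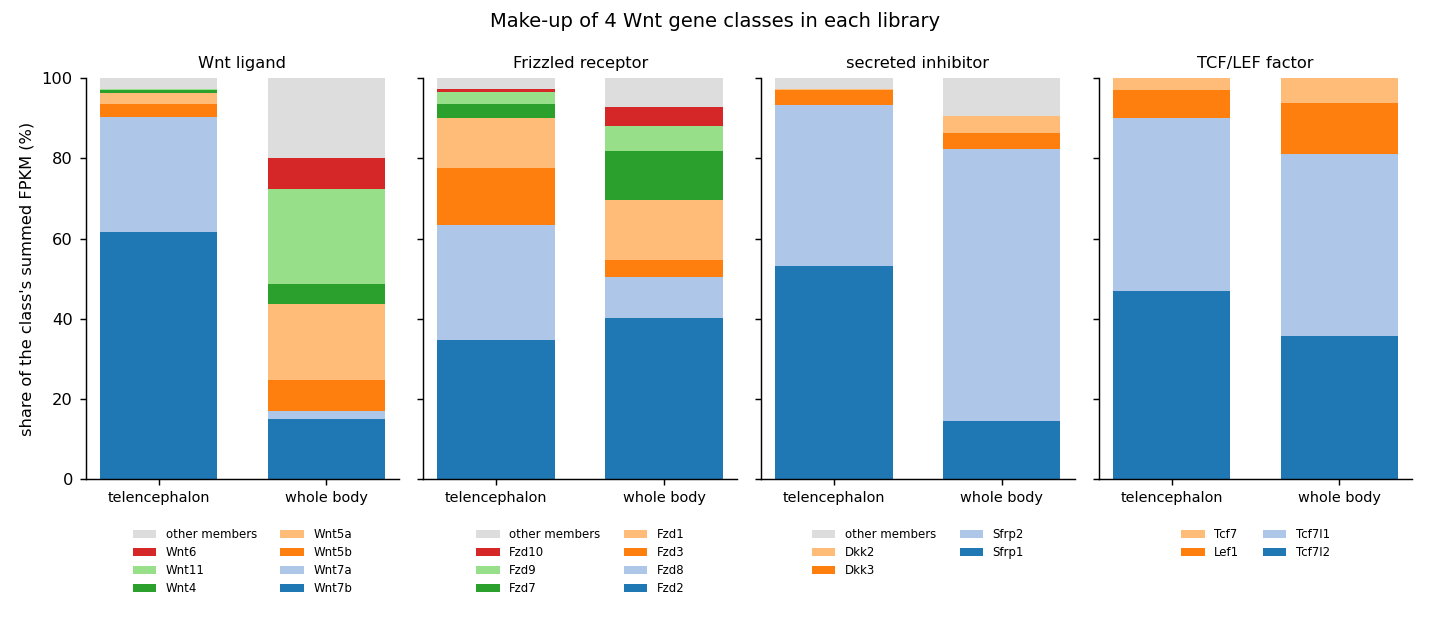
Share of each gene in the summed FPKM of its class (%), for the telencephalon library (left bar of each pair) and the whole-body library (right bar), with members under 4% in both libraries joined in grey. Wnt7b and Wnt7a fill 90.3% of the ligand bar in telencephalon, and Sfrp1 and Sfrp2 exchange the lead among inhibitors.

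Wnt11 had the lowest log2 ratio of the ligands, -4.27. This ligand of the non-canonical branch, known from heart, kidney and gastrulation (chromosome 7, 98835112 to 98855195, plus strand), stood at 0.207 FPKM in telencephalon, from about 5 fragments, and 22.3 FPKM in whole body, where it was the most abundant ligand. It was 108-fold lower, with an interval of 45.9 to 332. Nearly all of the telencephalic value was given to a transcript of 1395 bases subject to nonsense-mediated decay, while coding isoforms had 14.6 FPKM in whole body. By coding isoforms alone Wnt5a, at 15.5 FPKM, stood above Wnt11 in whole body, so the lead of Wnt11 holds for the gene value only. Wnt6, a ligand of surface ectoderm and other epithelia, stood at 0.101 FPKM in telencephalon, from about 4 fragments, and 7.12 FPKM in whole body (70.3-fold lower, interval 27.2 to 259). Wnt2, known from lung and heart, had no fragment in telencephalon and 2.76 FPKM in whole body, from about 150 fragments. These ligands were thus at or near 0 in telencephalon. Of the 14 measured ligands, 2 were higher and 11 lower, beside 9.39% and 21.2% of all measured genes. However, 10 of the 14 passed 1 FPKM through whole body alone. Among the 4 with 1 FPKM or more in both libraries, 2 were higher, 1 lower and 1 within 2-fold, with a median log2 ratio of 0.59. Of all genes at this level in both libraries, 9.21% were higher and 12.4% lower, with a median of -0.05.

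Wnt5a, the main ligand of Ror receptors and a gene of limb and facial mesenchyme that the cortical hem also expresses, stood at 2.84 FPKM in telencephalon and 17.9 FPKM in whole body (6.30-fold lower, interval 5.55 to 7.18). A non-coding transcript of 2147 bases held 45.4% of Wnt5a in telencephalon and 13.5% in whole body, and the coding isoforms, at 1.55 FPKM in telencephalon and 15.5 FPKM in whole body, were 9.98-fold lower. Its close relative Wnt5b lay within 2-fold on the log2(FPKM + 1) scale, at 3.29 FPKM in telencephalon and 7.03 FPKM in whole body. Wnt4, needed for kidney tubules and female gonads, stood at 0.717 FPKM in telencephalon and 4.60 FPKM in whole body. Wnt9a, a gene of forming joints, was 10.9-fold lower (0.309 FPKM in telencephalon and 3.38 FPKM in whole body) and Wnt16, known from bone, 11.7-fold lower (0.179 FPKM in telencephalon and 2.10 FPKM in whole body). Just past the 2-fold line lay Wnt10b, Wnt3 and Wnt10a, ligands with roles in skin, limb or teeth, with log2 ratios of -1.05, -1.02 and -1.02. The pseudocount narrowed these ratios. By FPKM, Wnt10b was 11.3-fold lower (interval 4.59 to 36.0), Wnt3 5.61-fold (interval 3.42 to 9.77) and Wnt10a 8.28-fold (interval 4.02 to 19.8). With a common upper quartile Wnt3 and Wnt10a came to -0.996 and -0.998, just inside the line, which left 9 of the 11 lower ligands. These 3 genes had between 0.116 and 0.289 FPKM in telencephalon and between 1.31 and 1.62 FPKM in whole body.

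The ligands listed here as markers of the cortical hem, other than Wnt5a, stayed under 1 FPKM in the telencephalon library. Wnt2b stood at 0.787 FPKM in telencephalon and 3.72 FPKM in whole body. Wnt3a, which is needed for growth of the hippocampus, stood at 0.163 FPKM in telencephalon, from about 9 fragments, and 0.754 FPKM in whole body. Wnt8b was the exception in direction, with 0.376 FPKM in telencephalon and 0.156 FPKM in whole body, from about 26 and 14 fragments. Its FPKM was 2.41-fold higher with an interval of 1.21 to 4.99, but it stayed under 1 FPKM in both libraries and has no call. Of the 9 markers of hem and choroid plexus 7 were measured, 5 of them lower and none higher, beside 21.2% and 9.39% of all measured genes. The list includes Wnt2b, Wnt3a, Wnt5a, Wnt8b and Rspo2, so it is not independent of the members. Otx2, within 2-fold, went the other way, at 5.71 FPKM in telencephalon and 3.84 FPKM in whole body. The 9 markers summed to 13.7 FPKM in telencephalon and 153 FPKM in whole body. Of these sums Ttr, a carrier protein made by choroid plexus and liver, had 2.34 FPKM in telencephalon and 104 FPKM in whole body. The remaining ligands under 1 FPKM in both libraries were Wnt1, a gene of midbrain and dorsal neural tube (0.172 FPKM in telencephalon and 0.679 FPKM in whole body), Wnt9b, needed for kidney tubules (0.0525 FPKM in telencephalon and 0.495 FPKM in whole body) and Wnt8a (0.0312 FPKM in telencephalon, about 1 fragment, and 0.263 FPKM in whole body).

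Several Wnt genes lie beside each other in the mouse genome, and 4 pairs of members were within 100 kb. Wnt6 and Wnt10a on chromosome 1, 6193 bases apart, were both lower. In the pairs Wnt1 and Wnt10b on chromosome 15, Wnt3 and Wnt9b on chromosome 11, and Wnt3a and Wnt9a on chromosome 11, 1 gene was called lower and its neighbour stayed under 1 FPKM in both libraries and has no call. The FPKM of these neighbours was also lower in telencephalon, 3.95-fold for Wnt1 (interval 1.83 to 9.75), 9.43-fold for Wnt9b (interval 3.83 to 30.1) and 4.63-fold for Wnt3a (interval 2.26 to 10.7).

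The regions before the start sites of the ligands with the highest and the lowest ratio, and of the canonical target Axin2, are shown to set these genes beside the letters that TCF/LEF factors bind. The sequences are from RefSeq on GRCm38.p6, written 5′ to 3′ on the strand of the gene, and capitals mark the motif. The Wnt7a stretch was shortened to the bases outside annotated exons.
Wnt7a, chr6:91411364-91411512, minus strand: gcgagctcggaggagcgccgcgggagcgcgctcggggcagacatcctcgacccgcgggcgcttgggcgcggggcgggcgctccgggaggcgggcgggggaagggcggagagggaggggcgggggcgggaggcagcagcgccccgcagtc
Wnt11, chr7:98834862-98835111, plus strand: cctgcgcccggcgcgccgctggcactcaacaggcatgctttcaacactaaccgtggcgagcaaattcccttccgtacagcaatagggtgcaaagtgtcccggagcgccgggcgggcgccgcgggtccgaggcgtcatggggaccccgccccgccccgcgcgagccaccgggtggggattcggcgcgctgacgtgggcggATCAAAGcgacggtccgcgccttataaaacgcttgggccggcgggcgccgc
Axin2, chr11:108920099-108920348, plus strand: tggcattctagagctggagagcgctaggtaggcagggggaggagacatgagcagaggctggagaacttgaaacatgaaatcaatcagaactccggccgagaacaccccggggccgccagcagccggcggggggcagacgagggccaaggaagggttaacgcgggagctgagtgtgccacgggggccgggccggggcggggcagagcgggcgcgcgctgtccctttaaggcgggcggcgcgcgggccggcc

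The letters searched for were CTTTGAA and CTTTGAT on both strands, which share all but the last base, in the 250 bases before each RefSeq start site. A window was given for 39 of the 57 genes, with 47 windows in all. Either motif was in 3 of these 47 windows and in 7.48% of all 32851 windows of the same length. The 3 windows belong to Wnt5b, Wnt11 and Dkk1, an inhibitor described below. Their sites, with 11 bases on each side, are shown for comparison, and the sites of Wnt5b and Wnt11 belong to 1 of several start sites each. The sites of Wnt5b and Dkk1 come before a RefSeq start site but lie within the annotated bounds of their genes. A second Wnt11 window (chr7:98838595-98838844) held neither motif.
Wnt5b, chr6:119449440-119449468, minus strand: agtaagtctctCTTTGATctgctccctgt
Wnt11, chr7:98835050-98835078, plus strand: gacgtgggcggATCAAAGcgacggtccgc
Dkk1, chr19:30549596-30549624, minus strand: tcctcccaaagCTTTGAAatcccatcccg
Such a match is a description of the letters, and its absence from the windows of Wnt7a and Axin2 says only that these letters are not in them.

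The Frizzled receptors were detected in both libraries, with Fzd2, Fzd8 and Fzd3 leading in telencephalon and Fzd2, Fzd1 and Fzd7 in whole body. Fzd3, which guides axons and closes the neural tube together with planar polarity genes (chromosome 14, 65192449 to 65262463, minus strand), stood at 22.4 FPKM in telencephalon and 9.94 FPKM in whole body. It was 2.26-fold higher, with an interval of 2.17 to 2.35. Fzd8, a receptor of anterior neural tissue, stood at 45.1 FPKM in telencephalon and 23.2 FPKM in whole body (1.94-fold, interval 1.86 to 2.02), and its log2 ratio of 0.93 lay just inside the 2-fold line. Fzd2, the most abundant Frizzled gene of both libraries, stood at 54.3 FPKM in telencephalon and 93.1 FPKM in whole body, and Fzd1 at 19.5 FPKM in telencephalon and 34.8 FPKM in whole body. Both lay within 2-fold.

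Of the 10 Frizzled genes 5 were lower in telencephalon, beside 21.2% of all measured genes. Fzd10, a gene of dorsal neural tube and limb, showed the lowest ratio, at 1.06 FPKM in telencephalon and 11.3 FPKM in whole body (10.7-fold lower, interval 8.43 to 13.9). Fzd7 stood at 5.29 FPKM in telencephalon and 28.1 FPKM in whole body, and Fzd4, the receptor of retinal and brain vessels, at 1.23 FPKM in telencephalon and 7.67 FPKM in whole body. Fzd9 stood at 4.85 FPKM in telencephalon and 14.6 FPKM in whole body, and Fzd6, which orients hair follicles, at 1.08 FPKM in telencephalon and 4.45 FPKM in whole body. Fzd5, a gene of the developing eye, lay within 2-fold on log2(FPKM + 1), though its FPKM was 2.22-fold lower, at 1.85 FPKM in telencephalon and 4.12 FPKM in whole body. The 10 genes summed to 157 FPKM in telencephalon and 231 FPKM in whole body. Fzd2, Fzd3 and Fzd8 made up 77.7% of the sum in telencephalon and 54.6% in whole body.

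Both canonical co-receptors had lower FPKM in telencephalon, Lrp5 past 2-fold and Lrp6 within it. Lrp5 stood at 13.7 FPKM in telencephalon and 42.9 FPKM in whole body (3.14-fold lower, interval 2.96 to 3.33), and Lrp6 at 15.7 FPKM in telencephalon and 26.5 FPKM in whole body (1.69-fold lower, interval 1.61 to 1.77). Their counting intervals do not overlap, and Lrp6 was the more abundant in telencephalon and Lrp5 in whole body. Receptors of the non-canonical branch ranged more widely. Ror1, a tyrosine kinase receptor for Wnt5a (chromosome 4, 100095791 to 100444765, plus strand), had the lowest FPKM ratio of the members above 0 in both libraries, at 0.0486 FPKM in telencephalon, from about 6 fragments, and 10.8 FPKM in whole body (221-fold lower, interval 102 to 604). Ror2, its relative of skeletal and limb tissue, stood at 2.83 FPKM in telencephalon and 16.7 FPKM in whole body. Ryk, a Wnt receptor of growing axons, stood at 27.2 FPKM in telencephalon and 34.2 FPKM in whole body, within 2-fold. Wnt5a and both Ror genes were called lower, while Ryk was within 2-fold.

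**Figure D3:**
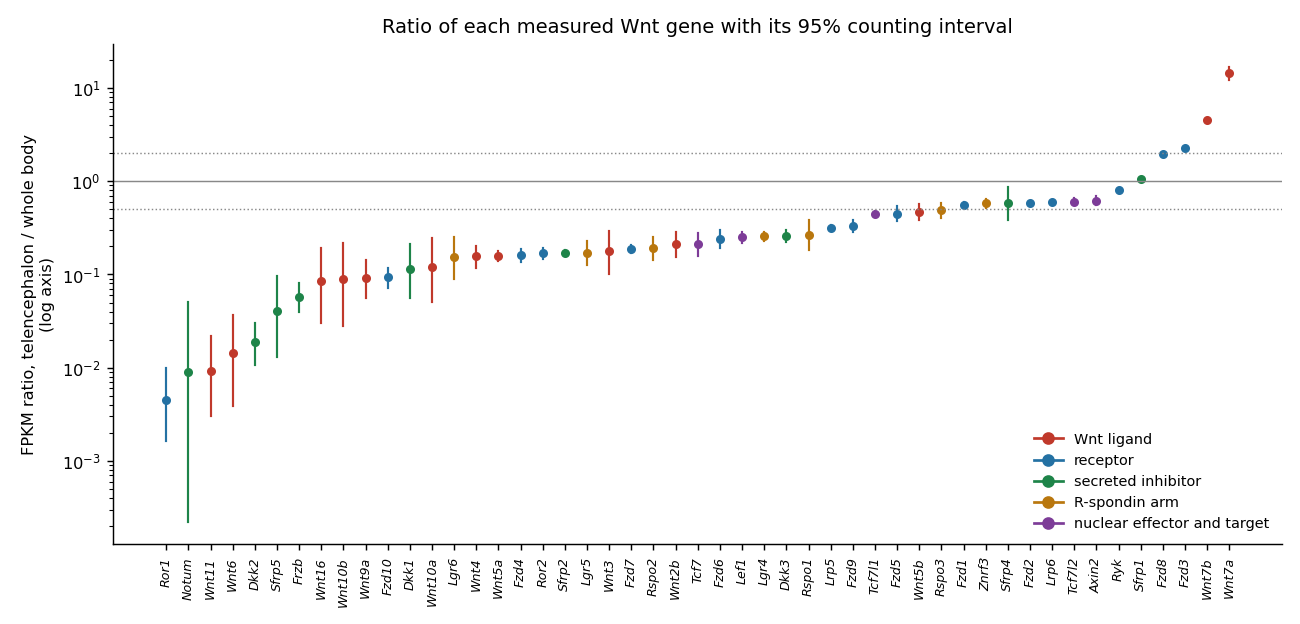
Ratio of FPKM, telencephalon over whole body, on a log axis for the 49 measured genes above 0 in both libraries, ordered by ratio and coloured by role. Points are the ratio, bars the exact 95% interval from estimated fragments (counting error only), the solid line equality and the dotted lines 2-fold. Wnt2 and Wif1, listed at 0 in telencephalon, are not drawn. The intervals of Wnt7a, Wnt7b and Fzd3 lie above the upper dotted line.

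Of the 10 secreted inhibitors 8 were lower and none higher, with a median log2 ratio of -1.96, but 6 of the 10 passed 1 FPKM through whole body alone. Of the 4 with 1 FPKM or more in both libraries 2 were lower, beside 12.4% of all such genes, with a median of -1.06. Medians of such members were -1.12 for receptors, -1.15 for nuclear and target genes and -1.30 for the R-spondin arm. For ligands the median of 0.59 rests on 4 genes, 2 of them higher and 1 lower. This level left out the 10 ligands that were under 1 FPKM in telencephalon alone. Over all 14 measured ligands the median was -1.40, with 11 lower. Sfrp2, a decoy that binds Wnt proteins (chromosome 3, 83766321 to 83774316, plus strand), stood at 31.5 FPKM in telencephalon and 184 FPKM in whole body (5.85-fold lower, interval 5.48 to 6.26). Its relative Sfrp1 stood at 41.4 FPKM in telencephalon and 39.1 FPKM in whole body. This small difference (1.06-fold, interval 1.01 to 1.11) is beyond counting error, but no replicate shows whether it is beyond the spread between libraries. Sfrp1 made up 53.0% of the summed inhibitor FPKM in telencephalon and 14.4% in whole body, while Sfrp2 made up 40.3% in telencephalon and 67.9% in whole body. The summed level of the class was 78.1 FPKM in telencephalon and 271 FPKM in whole body.

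The other inhibitors were weak or nearly absent in the telencephalon library. Dkk2, which binds Lrp5 and Lrp6, stood at 0.209 FPKM in telencephalon, from about 16 fragments, and 11.2 FPKM in whole body (53.5-fold lower, interval 32.8 to 93.9). Dkk1, the head inducer that blocks the same co-receptors, stood at 0.231 FPKM in telencephalon, from about 11 fragments, and 2.01 FPKM in whole body. Dkk3, a divergent member of that family, kept the highest level of the 3, at 2.88 FPKM in telencephalon and 11.1 FPKM in whole body. Frzb, a decoy known from cartilage, stood at 0.515 FPKM in telencephalon and 8.99 FPKM in whole body (17.4-fold lower, interval 12.3 to 25.5), and Sfrp5 at 0.140 FPKM in telencephalon and 3.47 FPKM in whole body. Wif1, which traps Wnt proteins outside the cell, had no fragment in telencephalon and 6.32 FPKM in whole body, from about 365 fragments. These inhibitors were so low in telencephalon that several folds rest on a few fragments. Notum, an enzyme that removes the lipid of Wnt proteins, had about 1 fragment in telencephalon and 106 in whole body, with FPKM of 0.0262 in telencephalon and 2.94 in whole body. A retained-intron transcript of 1433 bases held 79.8% of its whole-body value, and its coding isoforms had 0.0262 FPKM in telencephalon and 0.593 FPKM in whole body, too low for a call. Exons of other genes on the opposite strand cover 38.1% of its exons. Sfrp4 lay within 2-fold at 1.18 FPKM in telencephalon and 2.02 FPKM in whole body.

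R-spondins strengthen Wnt signals by binding Lgr receptors and removing the ubiquitin ligase Znrf3, which clears Frizzled receptors from the cell surface. Of the 7 measured genes of this arm 5 were lower and none higher, and 2 had passed 1 FPKM through whole body alone. Of the 5 with 1 FPKM or more in both libraries 3 were lower, beside 12.4% of all such genes. Rspo2, a gene of limb, lung and cortical hem, stood at 0.882 FPKM in telencephalon and 4.57 FPKM in whole body (5.18-fold lower, interval 3.94 to 6.92). Rspo1, needed for ovary development, stood at 1.14 FPKM in telencephalon and 4.28 FPKM in whole body. Rspo3, a gene of vessels and placenta, was the most abundant of the family in both libraries and lay within 2-fold on log2(FPKM + 1), though its FPKM was 2.05-fold lower, at 2.56 FPKM in telencephalon and 5.24 FPKM in whole body. Rspo4, known for nail formation, had no fragment in telencephalon and about 13 in whole body (0.216 FPKM).

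Among the R-spondin receptors, Lgr4 was the most abundant in both libraries, at 4.17 FPKM in telencephalon and 16.3 FPKM in whole body (3.90-fold lower, interval 3.52 to 4.34). Lgr5, the stem cell marker of gut and hair follicle, stood at 1.56 FPKM in telencephalon and 9.07 FPKM in whole body, and Lgr6 at 0.301 FPKM in telencephalon and 1.95 FPKM in whole body. A non-coding transcript of 607 bases held 62.6% of the Lgr5 value in telencephalon and 42.1% in whole body, and its coding isoforms had 0.427 FPKM in telencephalon and 4.34 FPKM in whole body (10.2-fold lower). Znrf3, itself a target of canonical signalling, lay within 2-fold at 3.45 FPKM in telencephalon and 5.96 FPKM in whole body (1.73-fold lower, interval 1.53 to 1.95).

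All 5 nuclear and target genes were detected above 1 FPKM in both libraries. Of these, 3 were lower and none higher, beside 12.4% and 9.21% of all such genes. Axin2, the widely used target gene of canonical signalling (chromosome 11, 108920349 to 108950783, plus strand), stood at 7.80 FPKM in telencephalon and 12.6 FPKM in whole body, within 2-fold (1.61-fold lower, interval 1.45 to 1.79). Lef1, a TCF/LEF factor that canonical signals induce in many tissues (chromosome 3, 131110471 to 131224356, plus strand), stood at 3.56 FPKM in telencephalon and 14.2 FPKM in whole body (log2 ratio -1.74, with the fold lower between 3.48 and 4.61). Tcf7, known from T cells and the tail bud, stood at 1.47 FPKM in telencephalon and 6.92 FPKM in whole body. Tcf7l1, which mostly represses targets, stood at 22.3 FPKM in telencephalon and 50.6 FPKM in whole body (2.27-fold lower, interval 2.11 to 2.44). Tcf7l2 stood at 24.1 FPKM in telencephalon and 39.8 FPKM in whole body, within 2-fold.

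Tcf7l1 and Tcf7l2 thus made up most of the TCF/LEF level, with Tcf7l2 first in telencephalon (46.8% of the summed FPKM, beside 35.7% in whole body) and Tcf7l1 first in whole body (45.4%, beside 43.4% in telencephalon). Tcf7l2 was also the only 1 of the 9 genes with several isoforms and 5 FPKM or more in both libraries whose most abundant isoform differed. In telencephalon a coding isoform of 729 bases held 42.4% of its FPKM, against 21.6% in whole body, and in whole body a coding isoform of 2318 bases led with 25.9%, against 21.9% in telencephalon. Coding isoforms together held 88.4% of Tcf7l2 in telencephalon and 72.5% in whole body. By coding isoforms alone Tcf7l1 led in both libraries, so the change of lead did not hold. Its coding level was 22.3 FPKM in telencephalon, beside 21.3 FPKM for Tcf7l2, and 50.6 FPKM in whole body, beside 28.9 FPKM. Tcf7l2 has 22 isoforms in the table, so these shares depend on how the fragments were divided among them. For Wnt7b, an isoform of 3134 bases held 14.7% in telencephalon and 4.45% in whole body, and an isoform of 3365 bases led in both.

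The rest of the pathway was surveyed with 69 other genes of Wnt secretion, modulation, cytoplasmic relay, nuclear partners, planar polarity and targets. Of the 62 measured, 9 were higher, 15 lower and 38 within 2-fold, with a median log2 ratio of 0.07. These are 14.5% higher and 24.2% lower, near the 9.39% and 21.2% of all measured genes. Among 21 genes of the cytoplasmic relay 4 were higher, 1 lower and 76.2% within 2-fold (median 0.21), beside 69.5% of all genes within 2-fold, and none of 11 nuclear partners was past 2-fold (median 0.33). Ctnnb1, the β-catenin gene, which was picked out with its values known, stood at 729 FPKM in telencephalon and 597 FPKM in whole body. Apc2, a neuronal relative of the destruction complex protein Apc, stood at 188 FPKM in telencephalon and 29.9 FPKM in whole body (6.28-fold higher, interval 6.11 to 6.46). Nkd2, a feedback inhibitor that binds Dishevelled, was the lower gene of the relay, at 1.88 FPKM in telencephalon and 7.50 FPKM in whole body. Cby1 and Tle1, both partners that restrain β-catenin or TCF/LEF activity, had the largest ratios of the nuclear list, each with a log2 ratio of 0.89.

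Among genes of secretion and of modulation outside the cell, 8 in all were lower. Of 4 secretion genes 2 were lower: Wls, the carrier that brings Wnt proteins to the surface, stood at 4.68 FPKM in telencephalon and 32.3 FPKM in whole body (6.90-fold lower, interval 6.17 to 7.74), and Gpc3, a heparan sulphate proteoglycan of growth control, at 4.04 FPKM in telencephalon and 446 FPKM in whole body. Of 11 measured membrane and secreted modulators 6 were lower and 1 higher, beside 21.2% and 9.39% of all measured genes. On log2(FPKM + 1) the 2 farthest were Adgra2 (listed under its older symbol Gpr124) and Reck, which form the receptor complex for Wnt7 proteins on brain endothelial cells. Adgra2 stood at 3.10 FPKM in telencephalon and 59.7 FPKM in whole body (19.3-fold lower, interval 17.2 to 21.7), and Reck at 1.93 FPKM in telencephalon and 23.7 FPKM in whole body (12.3-fold lower, interval 10.6 to 14.4). By FPKM fold a further pair of the list, picked out with its values known, lay farther: Kremen2, a receptor for Dkk proteins, was lower by a fold between 15.6 and 48.6 with about 14 fragments in telencephalon, and Sostdc1, a secreted antagonist, 188-fold lower (interval 33.5 to 7459) with about 1 fragment. Beside them all 6 endothelial markers were lower, among them Cdh5, a junction protein of vessels, at 7.15 FPKM in telencephalon and 35.3 FPKM in whole body, and the part of vessel or connective tissue content in these values was not tested.

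Planar cell polarity genes went both ways, with 3 of 8 higher and 3 lower, beside 9.39% and 21.2% of all measured genes. Celsr3, an atypical cadherin of axon tracts, stood at 86.9 FPKM in telencephalon and 14.4 FPKM in whole body (6.02-fold higher, interval 5.72 to 6.33). Vangl1 stood at 0.994 FPKM in telencephalon and 51.0 FPKM in whole body, but a non-coding isoform of 472 bases carried 57.4% of the whole-body value. Of 7 measured target genes 1 was higher and 3 were lower. Isl1, a transcription factor of striatal and motor neurons, stood at 47.5 FPKM in telencephalon and 11.6 FPKM in whole body, and Msx1, a homeobox gene of dorsal midline and limb, at 0.304 FPKM in telencephalon and 17.2 FPKM in whole body. For Isl1, a non-coding transcript of 588 bases held 36.4% in telencephalon and 20.9% in whole body. A retained-intron transcript of 676 bases held 28.2% of Isl1 in telencephalon and 26.1% in whole body.

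**Figure D4:**
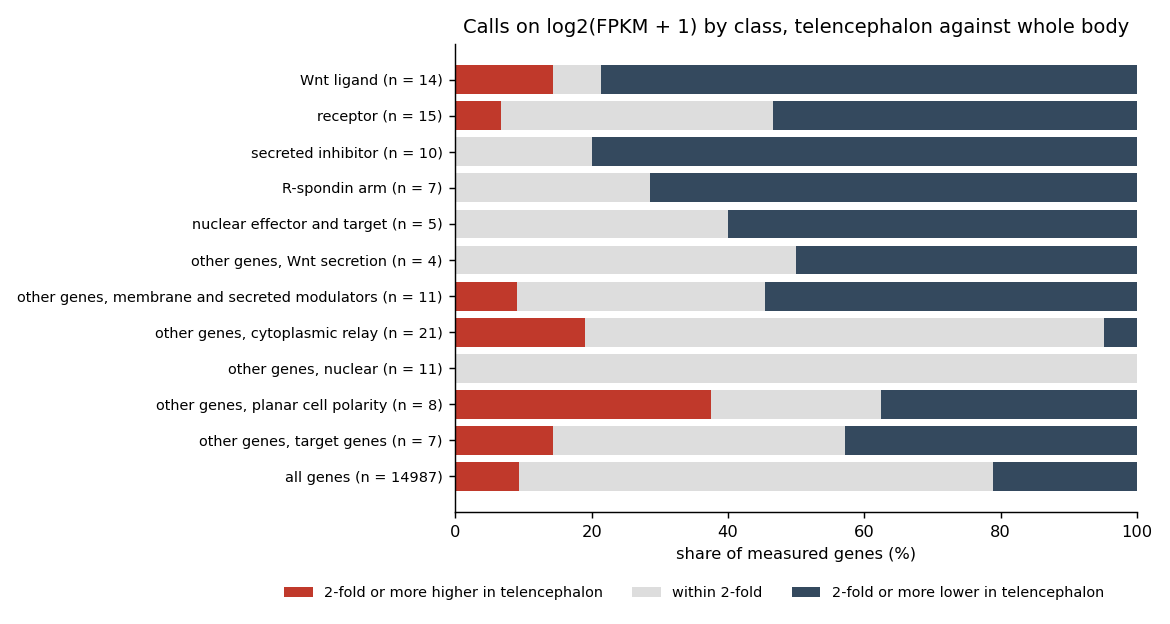
Share of the measured genes (%) of each Wnt class, of each list of other pathway genes and of all genes that was at least 2-fold higher in telencephalon (red), within 2-fold (grey) or at least 2-fold lower (dark) on log2(FPKM + 1). Of the 10 secreted inhibitors 8 are lower, but 6 of the 10 passed 1 FPKM through whole body alone. Where both libraries had at least 1 FPKM, 2 of 4 inhibitors and 12.4% of all genes are lower.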

How the data were processed

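The authors deposited FPKM per gene and per isoform for 1 telencephalon and 1 whole-body library. Per the labels' protocols, total RNA went into TruSeq RNA v2 libraries, a kit that does not mark strand, read on a HiSeq 2000. TopHat, Cufflinks and Cuffdiff with GRCm38 are named in the submitters' processing notes, without versions, and no source used here names the annotation release. Members and lists were chosen with earlier results of these data known. Symbols were matched to the table and gene identifiers to GENCODE M21 (GRCm38), which gave coordinates and transcript lengths for all 57 members. The log2 ratio used a pseudocount of 1 FPKM, and genes under 1 FPKM in both libraries got no call. Fragments were estimated from FPKM, transcript length less 334 bases (telencephalon) or 322 bases (whole body) and the fitted depth. With these depths, 92.1% of 2608 low values in telencephalon and 92.3% of 2389 in whole body came within 0.05 of a whole fragment. These values were also used to fit the depth. The depth fit and the calls were tested on simulated data. The text names all members. Of each list of other pathway genes, the 2 with the largest absolute log2 ratio and 5 FPKM or more were named, and of each marker list up to 3 with the highest summed FPKM and those at 0; others are said to be picked out with their values known. Calculations used Python 3.11.15, pandas 2.3.3 and scipy 1.17.1. Alternatives were the pseudocount, the floor, the scaling and the removal of isoforms under 300 bases or, added after seeing the data, of all non-coding isoforms.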

Additional observations from a re-analysis of the deposited data

How the results depend on the processing

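No paired analysis was possible because each group has 1 library, and no library could be left out for the same reason. The sign of the log2 ratio of every measured member was kept under each of the 8 alternatives in which the member was measured, and the 3 higher members were also higher without isoforms under 300 bases. A pseudocount of 0.1 FPKM moved the median log2 ratio to -2.15 over all members, -2.57 for ligands and -3.28 for inhibitors. A pseudocount of 5 FPKM left 18 members lower, with a median of -0.66, beside 9.94% of all genes (median -0.10), among them 3 ligands (median -0.56), 5 inhibitors and 2 genes of the R-spondin arm (median -0.60), and it left 0 receptors higher and 2 relay genes higher and 0 lower. With a floor of 5 FPKM, 20 of the 34 members that passed it were lower, beside 18.9% of all genes. The 20 included 3 ligands, 5 inhibitors and 2 genes of the R-spondin arm, since fewer genes were tested. Scaling to TPM moved the median of all genes from -0.16 to -0.02 and that of the members to -1.55, made 2 receptors higher, and gave 14 of the other pathway genes as higher, 2 of them nuclear. Of the secretion genes 1 was higher with the pseudocount of 0.1 FPKM, a common upper quartile, TPM or coding isoforms only, an alternative chosen after seeing the data. With coding isoforms only, Notum fell under the floor and 34 members were lower, beside 21.5% of all genes. The order of the class medians was not stable: with the pseudocount of 5 FPKM nuclear and target genes (-0.882) were as low as inhibitors (-0.876). Depth limits the members with under 20 fragments in telencephalon, whose folds have wide intervals.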

Other observations

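Isoforms of members outside the isoform rule also differed. An isoform of Wnt5b of 2339 bases held nearly all of its FPKM in telencephalon (3.29 FPKM) and 25.8% in whole body (1.81 FPKM), where an isoform of 2371 bases held 74.2%. For Lef1, an isoform of 2298 bases was near 0 in telencephalon and held 22.2% in whole body (3.16 FPKM), and an isoform of 3357 bases led in telencephalon with 55.5%, beside 31.0% in whole body. These genes were picked out with their values known, and the division of fragments among isoforms has no replicate check.

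Exons of another gene on the opposite strand cover at least 1 base of the exons of 11 members, and 10% or more in 5, namely Notum, Fzd5 (17.8%), Sfrp2 (16.1%), Lef1 (13.7%) and Rspo3 (13.1%). The partner of Sfrp2 stood at 0.118 FPKM in telencephalon and 1.52 FPKM in whole body, and that of Fzd5 at 0.338 FPKM in telencephalon and 0.640 FPKM in whole body.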
